A study of Homo sapiens with 18 samples.

Results

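Levels of 10 imprinted genes were followed through 18 RNA sequencing libraries of 3 human cancer cell lines, out of 27166 genes in the table. The genes were picked by name: PEG10, SGCE, DIRAS3, IGF2, H19, DLK1, MEG3, CDKN1C, PHLDA2 and GRB10. The choice rested in part on lower PEG10 and DIRAS3 in NCIH838 cells labelled KDSR KO, so the knockout difference in that line is given below as a description, with no p-value. Where genes of that line are counted as higher or lower, the threshold used for the other lines serves only to sort them. All 10 names were found, each on 1 row.

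The lines were HUH7 (hepatocellular carcinoma, liver), DLD1 (colon) and NCIH838 (lung). Each was infected with lentiCRISPR v2 virus that carried either a non-targeting guide (CTRL) or a single KDSR guide, g1 (KDSR KO). All groups, CTRL included, therefore had the vector, 5 days of puromycin and the same growth medium. Cells were harvested 8 days (HUH7, DLD1) or 10 days (NCIH838) after the virus was added, so the time differs with the line. Each of the 6 groups had 3 libraries, described as biological triplicates in the design text. The labels describe puromycin-selected populations with 1 KDSR guide and name no clone, so guide and gene cannot be told apart. Values after ± are SD over the 3 libraries of a group. KDSR encodes 3-ketodihydrosphingosine reductase, an early enzyme of sphingolipid synthesis.

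An imprinted gene is transcribed mainly from the copy inherited from 1 parent, because DNA methylation at a nearby control region marks the maternal and paternal copies differently. Many such genes act on growth of the fetus and placenta, and several are silenced, reactivated or expressed from both copies in tumours. Imprinted genes often sit in clusters whose members share a control region. PEG10 and SGCE share one on chromosome 7, H19 and IGF2 share one on chromosome 11, CDKN1C and PHLDA2 belong to the next domain on chromosome 11, and DLK1 and MEG3 lie together on chromosome 14. These libraries measured total RNA of each gene and do not tell the parental copies apart.

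Levels are in TPM, which give each gene's share of the measured RNA after correction for its length. Recovered reads ranged from 17039634 to 20385767 per library. KDSR mRNA was 5.79 ± 0.730 TPM in HUH7 CTRL and 3.63 ± 0.401 in KDSR KO (SD, n = 3 each; limma adjusted p = 0.114). In DLD1 it was 29.7 ± 2.50 and 19.2 ± 0.413 TPM, a fall of 35.2% (adjusted p = 0.000775). In NCIH838 it was 13.4 ± 1.39 and 12.9 ± 0.821 TPM, so the mRNA does not check the label there. Exact permutation tests of KDSR gave p = 0.1 in HUH7 and DLD1, the smallest possible with 3 against 3, and 0.7 in NCIH838. The fall of KDSR in HUH7 was 37.2%, a log2 difference of -0.55 (95% interval -0.75 to -0.35). That is close to the DLD1 log2 difference of -0.60 (95% interval -0.80 to -0.40). The HUH7 fall was not called after adjustment over the 16104 genes tested there. Of the tissue markers, all 9 liver markers reached a mean of 1 TPM in HUH7 and 8 of 9 colon markers did so in DLD1. None of the 6 measured lung markers reached it in NCIH838, where their sum was 1.11 to 1.82 TPM per library. That mean was also reached by 5 of 9 colon and 6 of 7 fibroblast markers in HUH7 CTRL. In DLD1 CTRL and in NCIH838 CTRL, 2 of 9 liver markers reached it. The liver sum was uneven over the NCIH838 CTRL libraries, at 0.949 to 9.52 TPM. The liver markers ALB and AFP peaked there at 3.10 and 3.16 TPM, against means of 0.671 and 0.677 over the 6 NCIH838 libraries. Replicate 1 of HUH7 CTRL, replicate 2 of NCIH838 KDSR KO and replicate 3 of DLD1 CTRL stood apart from the other libraries of their groups, with chi-square per degree of freedom of 17.6 to 19.4, 8.998 to 14.6 and 7.25 to 9.40, against 2.38 to 5.95 for the other pairs. Knockout differences of the members are given below with and without them.

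**Figure D1:**
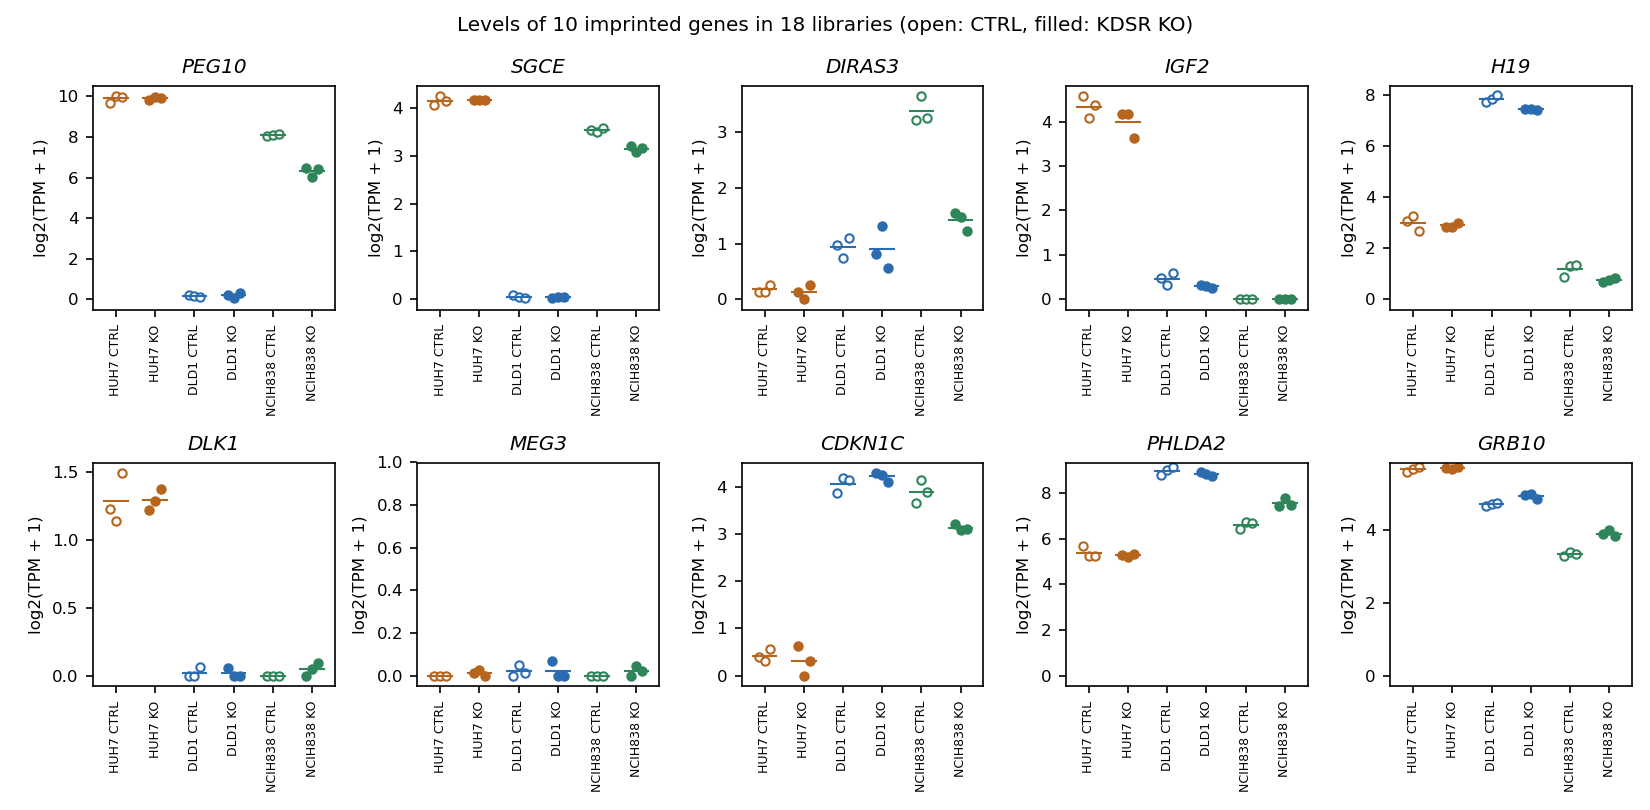
Level of each of the 10 genes, as log2(TPM + 1), in the 18 libraries. Open points are CTRL, filled points are KDSR KO (KO on the axis), and the short lines are means of 3 libraries on that scale. PEG10 is highest in HUH7 and near 0 in DLD1, H19 and PHLDA2 are highest in DLD1, and MEG3 is near 0 in every library.

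Promoter sequence was at hand for DIRAS3, GRB10, H19 and MEG3. MEG3, close to absent from every library, is not shown. The others are shown because DIRAS3 and GRB10 differed in opposite directions in NCIH838, H19 was the member with a lower call in DLD1, and the CG dinucleotide is the site of the DNA methylation that marks an imprint. Each is the 300-base RefSeq window of GRCh38.p14 from 250 bases before to 50 bases after the RefSeq start, read on the minus strand, the strand of these genes. For GRB10 it is the window that spans the deposited gene start. The windows were not matched to imprint control regions. Capitals mark CG dinucleotides.
DIRAS3, chr1:68050578-68050877: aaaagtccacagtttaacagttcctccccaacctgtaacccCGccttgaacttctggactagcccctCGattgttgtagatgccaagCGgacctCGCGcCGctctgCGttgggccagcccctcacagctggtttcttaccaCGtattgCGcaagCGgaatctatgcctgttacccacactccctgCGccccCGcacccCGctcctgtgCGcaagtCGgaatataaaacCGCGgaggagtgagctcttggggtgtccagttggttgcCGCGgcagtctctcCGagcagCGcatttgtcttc
GRB10, chr7:50793404-50793703: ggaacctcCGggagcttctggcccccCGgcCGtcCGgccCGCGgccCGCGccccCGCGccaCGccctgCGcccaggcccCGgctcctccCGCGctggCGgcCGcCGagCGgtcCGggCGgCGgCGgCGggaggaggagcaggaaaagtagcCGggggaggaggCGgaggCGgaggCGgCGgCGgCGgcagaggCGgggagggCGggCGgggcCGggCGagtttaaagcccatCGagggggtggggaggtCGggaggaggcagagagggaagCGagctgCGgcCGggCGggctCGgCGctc
H19, chr11:2001217-2001516: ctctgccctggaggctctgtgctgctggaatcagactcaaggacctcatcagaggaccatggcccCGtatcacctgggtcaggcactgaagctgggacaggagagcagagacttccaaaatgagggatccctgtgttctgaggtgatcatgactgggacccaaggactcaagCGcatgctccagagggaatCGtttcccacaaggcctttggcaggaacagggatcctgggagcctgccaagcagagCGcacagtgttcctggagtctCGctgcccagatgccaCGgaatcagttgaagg

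The GRB10 window held 44 CG dinucleotides and 81.0% G and C, the DIRAS3 window 21 and 58.3%, and the H19 window 6 and 57.7%. Over all 35116 promoter windows of the table the median was 14 CG, and 95.8%, 60.5% and 33.7% of windows held fewer than GRB10, DIRAS3 and H19. The letters TATAAA, searched on both strands, occurred in the DIRAS3 window with their first base 30 bases before the start, and in neither of the other windows; 11.5% of all windows hold them on either strand and 7.33% on the gene's own strand. The RefSeq start of DIRAS3 lies 1004 bases inside the start given in the table, that of H19 204 bases and that of GRB10 9 bases. The GRB10 distance was bound to be small, since its window was picked to span that start. Methylation was not measured in these libraries.

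PEG10 was the most abundant of the 10 in HUH7 and in NCIH838 CTRL, and was close to absent from DLD1. The gene (ENSG00000242265.5, hg38 chr7:94656325-94669637, plus strand) is derived from a retrotransposon, encodes a protein of the gag and pol kind, is expressed from the paternal copy and is needed for the placenta in the mouse. In HUH7 CTRL its level was 825, 1034 and 1016 TPM, and in HUH7 KDSR KO 906, 1006 and 961 TPM. These groups overlap (log2 difference 0.00, 95% interval -0.23 to 0.24, limma adjusted p = 0.986), and the mean of 959 TPM in CTRL ranked 101st of 27166 genes. In DLD1 the CTRL libraries had 0.145, 0.117 and 0.0696 TPM and the KDSR KO libraries 0.165, 0.0300 and 0.231 TPM, from 1 to 8 reads per library, which is too few for a test of the knockout.

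The NCIH838 CTRL libraries had 264, 277 and 280 TPM of PEG10 and the KDSR KO libraries 88.2, 64.5 and 85.5 TPM. The groups do not overlap, and the lowest KDSR KO library is replicate 2, which stands apart. The mean was 3.45-fold lower in KDSR KO, a difference of -1.79 on the log2(TPM + 1) scale, and -1.64 without KDSR KO replicate 2. Its rank by level went from 536th to 2284th of 27166. The DLD1 level was below that of HUH7 by 9.75 (SE 0.109; limma adjusted p = 4.69e-19) on the same scale.

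SGCE, which starts 247 bases from PEG10 on the other strand, had much the same pattern over the lines at a far lower level. It encodes epsilon-sarcoglycan, a membrane protein that is also expressed from the paternal copy and is mutated in a form of myoclonus-dystonia (ENSG00000127990.17, chr7:94524204-94656572, minus strand). In HUH7 the CTRL libraries had 15.7, 18.0 and 16.7 TPM and the KDSR KO libraries 16.9, 17.0 and 17.0 TPM, with overlap (log2 difference 0.02, 95% interval -0.11 to 0.15, adjusted p = 0.907). In DLD1 it was at most 0.0559 TPM, from 1 to 6 reads per library. The CTRL level of NCIH838 was lower than that of HUH7 by 0.61 (SE 0.0613, adjusted p = 1.88e-07).

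The 3 CTRL libraries of NCIH838 had 10.6, 10.3 and 10.9 TPM of SGCE and the KDSR KO libraries 8.18, 7.40 and 7.98 TPM. Again no KDSR KO library reaches the CTRL range. The difference was -0.39 on the log2 scale, or 1.35-fold lower, smaller than that of PEG10, and it was -0.36 without KDSR KO replicate 2. The ratio of PEG10 to SGCE was 25.8 ± 0.935 (SD, n = 3) in NCIH838 CTRL and 10.1 ± 1.18 in KDSR KO, while in HUH7 it was 56.9 ± 4.16 and 56.3 ± 2.77. The gene bodies overlap by 248 bases, with 219 exonic bases in common, which is 3.27% of the exonic bases of PEG10 and 1.05% of those of SGCE. The use of strand in counting was not given in the sources used here, so reads from the shared stretch cannot be placed.

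DIRAS3 was measurable mainly in NCIH838 CTRL. It encodes a small GTPase of the Ras superfamily that restrains growth, is expressed from the paternal copy and is often lost in breast and ovarian cancers (ENSG00000162595.6, chr1:68045896-68051631, minus strand). In NCIH838 the CTRL libraries had 8.32, 11.6 and 8.59 TPM and the KDSR KO libraries 1.92, 1.78 and 1.34 TPM. The groups are far apart, and the reads behind them were 94, 128 and 95 against 21, 20 and 15. The mean was 5.65-fold lower, a difference of -1.96 on the log2(TPM + 1) scale, and -1.99 without KDSR KO replicate 2.

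Elsewhere DIRAS3 stayed at the edge of detection. In DLD1 the CTRL libraries had 0.954, 0.673 and 1.14 TPM and the KDSR KO libraries 0.758, 1.48 and 0.473 TPM, with overlapping groups. In HUH7 no library had more than 2 reads, and the highest value was 0.197 TPM. In the CTRL libraries DLD1 was above HUH7 by 0.76 (SE 0.174), on 27 reads against 4. DIRAS3 averaged under 1 TPM in both lines and entered that fit only through its level in NCIH838. No p-value is given for it. DIRAS3 lies inside the antisense gene GNG12-AS1 without sharing an exonic base. GNG12-AS1 itself averaged 0.476 ± 0.283 TPM in NCIH838 CTRL and 0.458 ± 0.108 in KDSR KO.

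Among the 16347 genes averaging 1 TPM or more in NCIH838, DIRAS3 ranked 11th and PEG10 22nd from the largest negative difference. CDKN1C was 584th and SGCE 2959th. GRB10 and PHLDA2 were near the other end, at 15224th and 15913th. All 6 members that passed this minimum met the call rule used for the other lines (adjusted p under 0.05), 2 higher and 4 lower, where 42.5% of all genes did (15.7% higher, 26.8% lower; higher genes made up 36.9% of calls, and 45.8% to 50.2% with the other scalings). All 6 had groups that do not overlap, as 50.8% of genes did, and 4 had every KDSR KO library below CTRL, as 31.9% of genes did. Nothing is read from these counts, since the genes were chosen on that contrast.

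**Figure D2:**
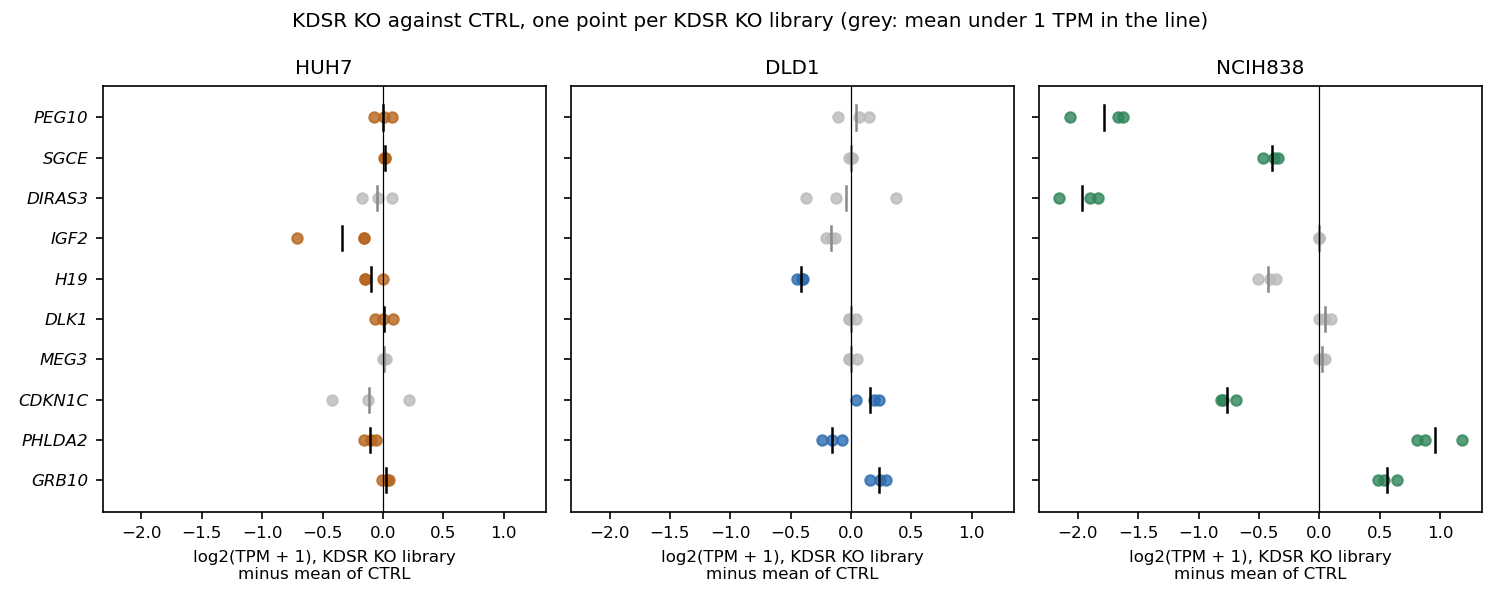
Difference of each KDSR KO library from the mean of the CTRL libraries of its line, on the log2(TPM + 1) scale, for the 10 genes in the 3 lines. Black bars are means of 3 libraries, and grey marks a gene with a mean under 1 TPM in the line. In NCIH838 the points of PEG10 and DIRAS3 lie below -1.5, while in HUH7 every gene averaging 1 TPM or more has a mean near 0 except IGF2.

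H19 was abundant in DLD1 and low in the other lines. It is a maternally expressed long noncoding RNA that is abundant in the fetus (ENSG00000130600.18, chr11:1995176-2001470, minus strand). In DLD1 the CTRL libraries had 210, 227 and 251 TPM and the KDSR KO libraries 174, 172 and 168 TPM. All KDSR KO libraries lie below all CTRL libraries. H19 fell 1.34-fold in DLD1, a log2 difference of -0.42 (SE 0.134; limma adjusted p = 0.0448, range over 15 alternatives 0.000875 to 0.171). This call was lost in 11 of the 15 alternatives, so it is a borderline one, and it was lost without any 1 of CTRL replicates 2 and 3 and KDSR KO replicates 1, 2 and 3 (adjusted p 0.0903 to 0.159), with log2 differences of -0.48 to -0.35 over all leave-one-out fits.

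The colon markers moved with H19 in DLD1. Their summed level was 1064 to 1163 TPM in CTRL and 827 to 865 TPM in KDSR KO. Of the 7 colon markers tested, 4 fell (ASCL2, VIL1, CDX2 and LGR5), where 12.1% of all genes did. The part of this in the H19 result was not tested. In bulk RNA, fewer cells with a transcript and less of it per cell cannot be told apart. In HUH7, H19 was 7.27, 8.45 and 5.41 TPM in CTRL against 6.18, 6.17 and 6.95 TPM in KDSR KO, with overlap (log2 difference -0.10, 95% interval -0.38 to 0.19, adjusted p = 0.747). In NCIH838 the CTRL libraries had 0.810, 1.46 and 1.53 TPM and the KDSR KO libraries 0.580, 0.690 and 0.753 TPM, from 9 to 24 reads, under the 1 TPM minimum. The DLD1 CTRL level was 32.6-fold that of HUH7 (log2 difference 4.86, adjusted p = 1.75e-14) and 181-fold that of NCIH838 (adjusted p = 3.72e-16).

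H19 is also the host of a microRNA, miR-675, whose hairpin lies in an exon of H19. Its mature products are shown because they come from the transcript called lower in DLD1. They are not measured as microRNAs in this table. RefSeq gives them on GRCh38.p14, minus strand, with the seed (bases 2 to 8) in capitals.
hsa-miR-675-5p, chr11:1996800-1996822: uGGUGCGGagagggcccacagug
hsa-miR-675-3p, chr11:1996768-1996787: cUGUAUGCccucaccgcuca

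IGF2, the reciprocal partner of H19, was the higher of the pair in HUH7 and the lower in DLD1, and both were at their lowest in NCIH838. It encodes insulin-like growth factor II, a fetal growth factor expressed from the paternal copy (ENSG00000167244.19, chr11:2129112-2149603, minus strand, 148.133 kb from H19 between gene starts). In HUH7 the CTRL libraries had 22.8, 15.8 and 19.6 TPM and the KDSR KO libraries 17.1, 17.1 and 11.3 TPM. The groups overlap, and the log2 difference of -0.34 (95% interval -0.65 to -0.03) did not pass limma's test (adjusted p = 0.429). That interval uses a spread shared by all 18 libraries, among them NCIH838 libraries with 0 reads of IGF2. It can therefore be too narrow for HUH7, and nothing is read from its leaving out 0. It was -0.16 without KDSR KO replicate 3, the lowest library, and -0.22 without CTRL replicate 1, the highest.

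In DLD1, IGF2 was 0.193 to 0.501 TPM, from 7 to 15 reads per library. In NCIH838 it had 0 reads in all 6 libraries, which allows a mean of up to 0.0262 TPM in the CTRL group and 0.0263 TPM in the KDSR KO group at 3 reads per group. The HUH7 CTRL level was 50.9-fold that of DLD1 CTRL (DLD1 minus HUH7, log2 difference -3.87, adjusted p = 7.47e-13) and at least 739-fold higher than that of NCIH838 CTRL. The ratio of H19 to IGF2 was 0.377 ± 0.139 in HUH7 CTRL and 646 ± 219 in DLD1 CTRL (SD, n = 3 each). The IGF2 row shares 73.7% of its exonic bases with a second gene ID of the same name and 20.9% with INS-IGF2. Neither is among the 27166 genes deposited. The rule for reads in shared exons was not given in the sources used here, so the IGF2 level may leave out part of its reads. The antisense gene IGF2-AS, with 4.77% of the exonic bases of IGF2 in common, averaged 1.83 ± 0.239 TPM in HUH7 CTRL.

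DLK1 and MEG3, the reciprocal pair of chromosome 14, were low or undetected. DLK1 encodes a membrane protein related to the Notch ligands, expressed from the paternal copy (ENSG00000185559.14, chr14:100725705-100735127, plus strand). It was 1.35, 1.199 and 1.82 TPM in HUH7 CTRL and 1.33, 1.44 and 1.59 TPM in HUH7 KDSR KO, groups that overlap (log2 difference 0.01, 95% interval -0.19 to 0.20, adjusted p = 0.972). In DLD1 and NCIH838 no library had more than 2 reads of DLK1, and the HUH7 CTRL level was at least 42.2-fold higher than that of NCIH838 CTRL. MEG3, a maternally expressed long noncoding RNA with growth-restraining activity (ENSG00000214548.16, chr14:100779410-100861018, plus strand), had at most 5 reads and at most 0.0476 TPM in any library, and none in the CTRL libraries of HUH7 and NCIH838. It passed the minimum in no line, so 9 of the 10 members entered any test.

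**Figure D3:**
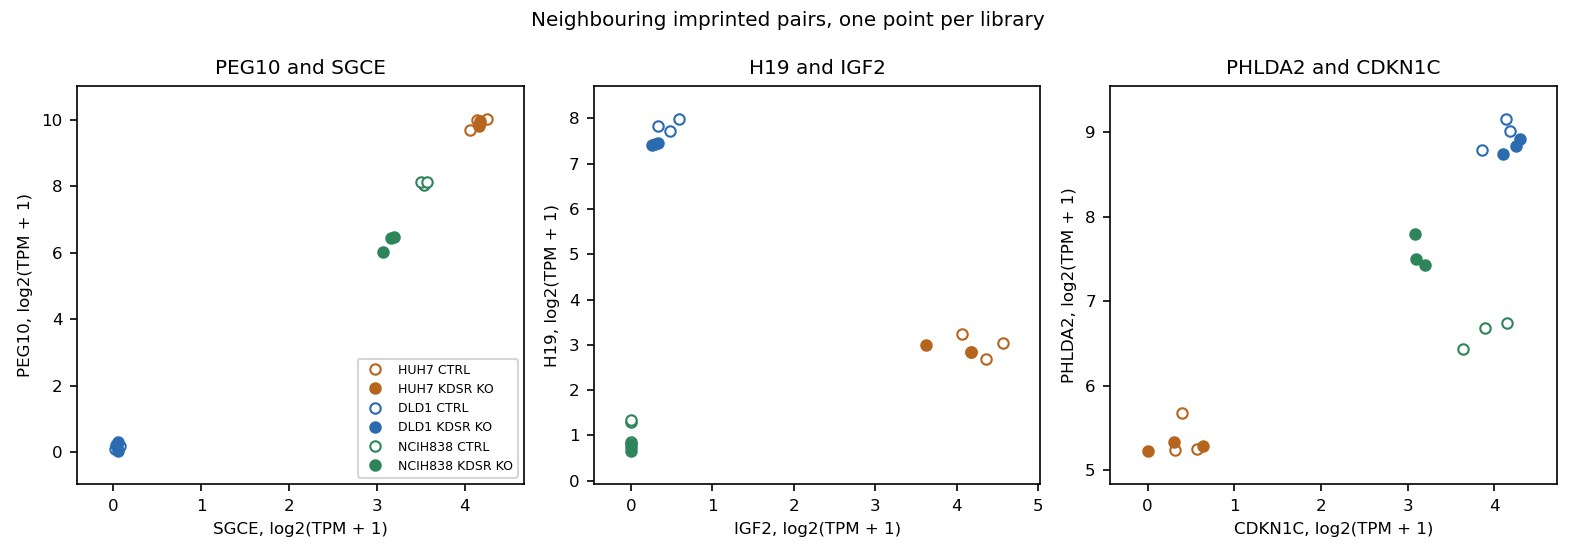
Levels of 3 neighbouring pairs, each point a library, both axes log2(TPM + 1). Open points are CTRL and filled points are KDSR KO. PEG10 and SGCE are high in HUH7, next in NCIH838 and near 0 in DLD1; H19 and IGF2 are each high in a different line; in NCIH838 the KDSR KO points have more PHLDA2 and less CDKN1C than the CTRL points.

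CDKN1C and PHLDA2 lie 43.727 kb apart between gene starts, and both are maternally expressed restraints on growth. CDKN1C encodes the cyclin-dependent kinase inhibitor p57 (ENSG00000129757.13, chr11:2883213-2885728, minus strand). It was 13.5, 17.2 and 16.6 TPM in DLD1 CTRL and 18.6, 18.0 and 16.2 TPM in DLD1 KDSR KO. The groups overlap, with a log2 difference of 0.16 (95% interval -0.17 to 0.48, adjusted p = 0.524; 0.20 without CTRL replicate 3). In HUH7 it had at most 7 reads per library and 0.556 TPM.

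In NCIH838, the CTRL libraries had 11.5, 16.7 and 13.8 TPM of CDKN1C and the KDSR KO libraries 8.21, 7.48 and 7.55 TPM. The KDSR KO libraries all lie below CTRL, with a log2 difference of -0.77, and -0.74 without KDSR KO replicate 2. The CTRL levels of DLD1 and NCIH838 did not differ beyond their spread (log2 difference -0.17, 95% interval -0.49 to 0.16, adjusted p = 0.343), and each was above HUH7, by 3.64 (adjusted p = 3.36e-12) and 3.47 (adjusted p = 6.23e-12).

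PHLDA2 encodes a small protein with a pleckstrin homology domain that limits placental growth (ENSG00000181649.6, chr11:2928273-2929455, minus strand). In NCIH838 the CTRL libraries had 85.4, 106 and 102 TPM and the KDSR KO libraries 171, 222 and 180 TPM, groups that do not overlap. The mean was 1.95-fold higher, a log2 difference of 0.96, and 0.84 without KDSR KO replicate 2. With CDKN1C lower, the ratio of PHLDA2 to CDKN1C was 7.03 ± 0.607 in NCIH838 CTRL and 24.7 ± 4.49 in KDSR KO.

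In DLD1 the PHLDA2 level was the highest of the 10 genes, with 443, 518 and 569 TPM in the CTRL libraries and 483, 455 and 429 TPM in the KDSR KO libraries. These groups overlap (log2 difference -0.16, 95% interval -0.43 to 0.11, adjusted p = 0.432; -0.07 without CTRL replicate 3), and the CTRL mean of 510 TPM ranked 257th of 27166 genes. In HUH7 the CTRL libraries had 49.9, 36.7 and 37.0 TPM and the KDSR KO libraries 38.1, 36.4 and 39.1 TPM, with 1 high library, CTRL replicate 1. The log2 difference of -0.10 there (95% interval -0.38 to 0.17, adjusted p = 0.711) became 0.04 without that library. PHLDA2 in CTRL was highest in DLD1, 12.4-fold above HUH7 (adjusted p = 3.99e-13), with NCIH838 between them, 2.37-fold above HUH7 (adjusted p = 2.80e-07).

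GRB10 was the member whose call in DLD1 held in all 15 alternatives. It encodes an adaptor protein that binds the insulin and insulin-like growth factor receptors and dampens their signal, with imprinting that depends on tissue (ENSG00000106070.18, chr7:50590063-50793462, minus strand). In DLD1 the CTRL libraries had 24.2, 25.2 and 25.4 TPM and the KDSR KO libraries 29.7, 30.7 and 27.9 TPM. All KDSR KO libraries lie above all CTRL libraries. GRB10 rose 1.18-fold in DLD1, a log2 difference of 0.23 (SE 0.0531, adjusted p = 0.00945), with adjusted p over the alternatives from 0.00102 to 0.0456. Without CTRL replicate 3 the difference was 0.24 (adjusted p = 0.0228).

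In NCIH838, the CTRL libraries had 8.72, 9.39 and 9.18 TPM of GRB10 and the KDSR KO libraries 13.7, 14.8 and 13.2 TPM. The groups do not overlap, and the mean was 1.52-fold higher, a log2 difference of 0.56, and 0.51 without KDSR KO replicate 2. In HUH7 the CTRL libraries had 47.2, 49.9 and 51.7 TPM and the KDSR KO libraries 50.8, 49.4 and 51.4 TPM, overlapping, with a log2 difference of 0.03 (95% interval -0.09 to 0.14, adjusted p = 0.826). The CTRL levels fell in the order HUH7, DLD1, NCIH838, with DLD1 1.99-fold below HUH7 (adjusted p = 1.21e-10) and NCIH838 2.74-fold below DLD1 (adjusted p = 1.49e-12).

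Read by line, 0 of the 7 members tested in HUH7 were called, against 0% of 16104 genes (1806 genes, and IGF2 alone of the members, had an unadjusted limma p under 0.05; limma voom on recovered reads also called 0). In DLD1, 1 of the 4 members tested rose and 1 fell, where 17.3% of genes were called, 5.16% higher and 12.1% lower. Higher genes made up 29.9% of those calls, and 47.6% to 55.8% with median ratio scaling, quantile normalization or limma voom. KDSR KO and CTRL libraries did not overlap for 0 of 7 members in HUH7 and 2 of 4 in DLD1, where 16.9% and 39.2% of genes had groups that did not overlap (KDSR KO all below CTRL for 10.1% and 27.2%). Without HUH7 CTRL replicate 1, the HUH7 differences of PEG10, SGCE, DLK1, PHLDA2 and GRB10 changed sign, none of them called with or without it. The knockout effect itself was compared between DLD1 and HUH7 for the 3 members tested in both. H19 gave -0.32 (SE 0.189, adjusted p = 0.393), PHLDA2 -0.05 (SE 0.180, adjusted p = 0.910) and GRB10 0.20 (SE 0.0751, adjusted p = 0.176), so 0 of 3 differed, where 2.62% of 13412 genes did, 1.6% higher and 1.01% lower (61.3% of those calls higher, and 76.5% to 84.7% with the other scalings). By unadjusted limma p under 0.05, 2451 genes differed; limma voom called 1 of the 3, GRB10 (0.28, adjusted p = 0.0368).

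Between the lines without the knockout, the members differed widely, as did genes in general. All 9 tested differed between DLD1 CTRL and HUH7 CTRL (4 higher and 5 lower in DLD1), where 70.6% of genes did, 38.7% higher and 31.9% lower. All 9 differed between NCIH838 CTRL and HUH7 CTRL, 3 higher and 6 lower in NCIH838, where 73% of genes did, 39.2% higher and 33.8% lower. Against DLD1 CTRL, 3 were higher and 4 lower in NCIH838, where 73% did, 35.6% higher and 37.4% lower, while CDKN1C and DLK1 did not pass. These contrasts took any gene averaging 1 TPM or more in at least 1 of the lines. DIRAS3 is among the 4 higher in DLD1 than HUH7 only through its level in NCIH838. IGF2 is among the 4 lower in NCIH838 than DLD1 only through its level in HUH7. Both were under that mean in the lines compared. Since PEG10 and DIRAS3 were singled out by a lower value in NCIH838, which needs a level there to start from, their place in these counts is not independent of the choice.

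The genes beside the members were followed by distance. Around PEG10 in NCIH838, CASD1 (147.106 kb upstream, -0.42), PPP1R9A (250.877 kb downstream, -0.60) and PON2 (778.747 kb downstream, -0.38) were lower, and TFPI2 (765.334 kb upstream, 0.89) was higher. TFPI2 encodes a serine protease inhibitor, PPP1R9A a regulatory partner of protein phosphatase 1, CASD1 a sialic acid acetyltransferase and PON2 a paraoxonase. Beside DIRAS3, GNG12 differed by -0.27, which did not meet the call rule, and WLS, the carrier of Wnt ligands, by -0.18. Around GRB10, COBL, an actin nucleator, was 2.10-fold lower in NCIH838 (-0.995), and FIGNL1 differed by -0.26, which did not meet the call rule.

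In the CDKN1C domain of NCIH838, SLC22A18 (13.993 kb from CDKN1C, 0.07) and NAP1L4 (106.649 kb, -0.08) did not meet the call rule, while CARS (171.709 kb, 0.30) and TSSC4 (485.240 kb on the other side, 0.38) were higher. CARS is a cysteinyl-tRNA synthetase. Of 15 listed neighbours in NCIH838, 3 were higher and 5 lower, against 15.7% and 26.8% of all genes. In DLD1, 1 of 15 rose (CARS, log2 difference 0.23) and 4 fell: KCNQ1 (-0.46), MRPL23 (-0.29), CD81 (-0.19) and COBL (-0.18), against 5.16% and 12.1% of all genes. KCNQ1 encodes a potassium channel and MRPL23 a mitochondrial ribosomal protein whose gene lies 54.192 kb from H19. The count of 4 was 0 with a pseudocount of 0.1, 1 with no filter, under median ratio scaling and quantile normalization, 2 with mitochondrial genes left out, with only the groups compared and under limma voom, and 1 without any 1 of CTRL replicates 2 and 3 and KDSR KO replicates 1, 2 and 3. In HUH7 0 of 16 were called.

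**Figure D4:**
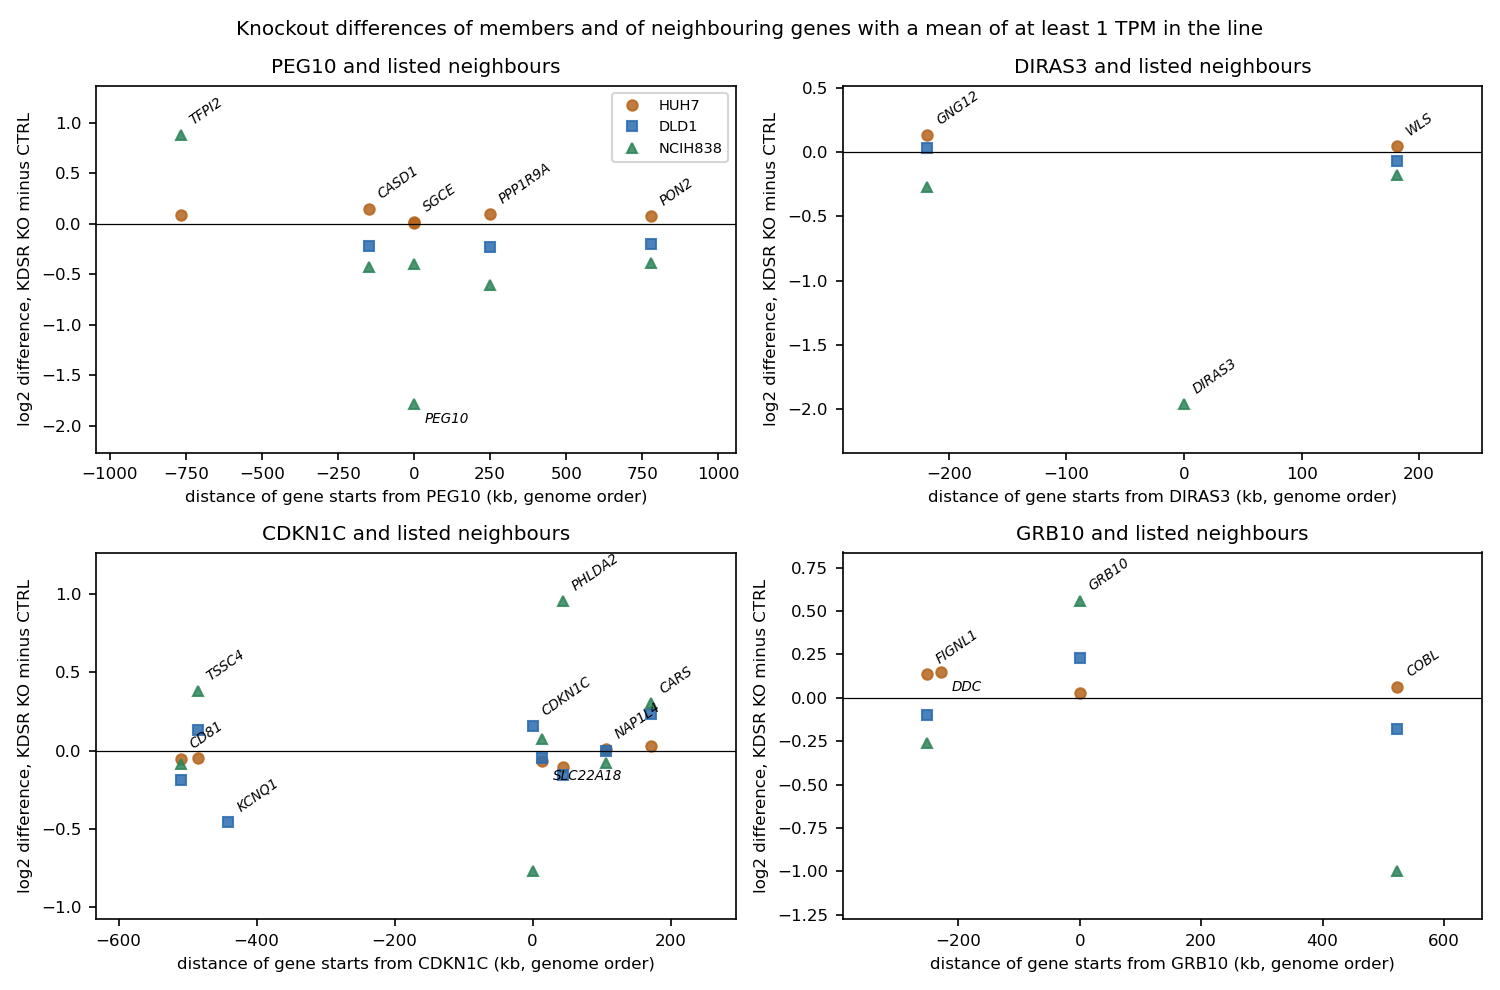
Knockout difference (KDSR KO minus CTRL, log2(TPM + 1) scale) of PEG10, DIRAS3, CDKN1C and GRB10 and of listed neighbours, against the distance between gene starts in kilobases. Each point is a gene in 1 line averaging 1 TPM or more there. In NCIH838 PEG10 at -1.79 and DIRAS3 at -1.96 lie below every neighbour drawn. Both were chosen in part for lower values in that contrast, so nothing is read from their place. CDKN1C at -0.77 and PHLDA2 at 0.96 lie on opposite sides of 0 in that line.

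Other imprinted genes, listed as such in human or mouse, numbered 56, of which 45 were measured. In DLD1, 0 of the 26 tested rose and 7 fell, where 5.16% of all genes rose and 12.1% fell, with a median log2 difference of -0.10 beside -0.07 over all genes. ASCL2, an intestinal stem cell regulator imprinted in mouse placenta, fell 1.48-fold (adjusted p = 2.38e-05) from 442 ± 35.2 to 299 ± 13.7 TPM, and it is also on the colon marker list. DIO3, which inactivates thyroid hormone, fell 1.47-fold (adjusted p = 0.00417), OSBPL5, a lipid transfer protein, 1.36-fold (adjusted p = 0.00326) and TRAPPC9, a vesicle transport subunit, 1.29-fold (adjusted p = 0.00681). NLRP2 fell 1.16-fold (adjusted p = 0.00399), and KCNQ1 and TP73 complete the 7. Under other settings the count of falls was 2 (pseudocount 0.1) to 8.

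In NCIH838, 3 of 27 were higher and 11 lower (3 and 9 without KDSR KO replicate 2), with a median of -0.17 beside -0.09 over all genes. Of all genes there, 15.7% were higher and 26.8% lower. MEST, a paternally expressed gene of the same chromosome arm as PEG10, was 87.3 ± 3.08 TPM in CTRL against 57.9 ± 5.38 TPM in KDSR KO, 1.51-fold lower. TRAPPC9 was 1.60-fold lower and COPG2, the neighbour of MEST, 1.42-fold lower. ZC3H12C was 1.61-fold higher, as was TFPI2 (1.86-fold). In HUH7 0 of 26 were called, and MEST was 91.8 ± 13.1 and 91.3 ± 3.45 TPM.

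Enzymes and readers of DNA methylation and of imprints were read against shares over all genes of 5.16% higher and 12.1% lower in DLD1 and 15.7% and 26.8% in NCIH838. In DLD1, 0 of 28 tested rose and 6 fell: UHRF1, which brings DNMT1 to newly made DNA (log2 difference -0.33, adjusted p = 0.00211), EHMT2, a histone methyltransferase (-0.35, adjusted p = 0.00422), DNMT3A, a de novo methyltransferase (-0.29, adjusted p = 0.00326), DNMT1, the maintenance methyltransferase (-0.27, adjusted p = 0.0108), TRIM28, a corepressor at imprints (-0.23, adjusted p = 0.00989), and KDM1B, a demethylase needed to set imprints in mouse oocytes (-0.22, adjusted p = 0.0169). The median of the list was -0.14 beside -0.07 over all genes, and the count of falls was 5 to 7 in the alternatives. In NCIH838, 3 of 28 were higher and 8 lower (3 and 7 without KDSR KO replicate 2). DNMT3B was 32.2 ± 2.53 TPM in CTRL against 19.3 ± 0.824 TPM in KDSR KO, HELLS, a chromatin remodeller, was 1.58-fold lower, DNMT3A was 1.42-fold lower and EHMT2 was 1.32-fold lower. MBD1, a reader of methylated CG, was 1.53-fold higher and TET3, an enzyme that oxidizes methylcytosine, 1.27-fold higher. In HUH7 0 of 28 were called.

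In the insulin-like growth factor pathway, to which IGF2 and GRB10 belong, 3 of 17 genes tested in DLD1 rose and 2 fell, where 5.16% of all genes rose and 12.1% fell. The rises were GRB10, SHC1, an adaptor of receptor signalling (log2 difference 0.24, adjusted p = 0.00290), and IRS2 (0.38, adjusted p = 0.0365), which is named to complete the count. The falls were IGF1R, the receptor of the pathway, from 12.6 ± 0.719 to 10.1 ± 0.723 TPM (adjusted p = 0.0125), and IGFBP2, a binding protein, from 99.4 ± 9.75 to 77.1 ± 0.875 TPM (adjusted p = 0.0132). In NCIH838, 4 of 18 were higher and 6 lower, where 15.7% and 26.8% of all genes were. The balance turned with the scaling, to 6 higher and 3 lower under median ratio scaling, 7 and 2 under quantile normalization, and 7 and 1 under limma voom. The 6 lower became 2 with only the groups compared, 4 without KDSR KO replicate 2, 2 without KDSR KO replicate 1, and 1 without CTRL replicate 2 or KDSR KO replicate 3. The 2 falls in DLD1 were 0 without CTRL replicate 3, 1 without KDSR KO replicate 3 and 4 without CTRL replicate 1. IGFBP6 was 1.68-fold higher and IRS2 1.67-fold higher in NCIH838. IGFBP4 was 1.39-fold lower there, the adaptor GRB14 1.27-fold, the insulin receptor INSR 1.22-fold, and IGFBP2 differed by -0.25 on the log2 scale. In HUH7 0 of 22 were called.

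Relatives of the members were followed as well. CDKN1A, which encodes the inhibitor p21 and is a relative of CDKN1C, rose in DLD1 from 18.1 ± 1.75 to 29.96 ± 2.08 TPM (log2 difference 0.70, adjusted p = 4.69e-05). In NCIH838 it was 59.0 ± 1.98 TPM in CTRL against 147 ± 14.6 TPM in KDSR KO, where CDKN1C was lower. PHLDA1, a relative of PHLDA2, was 11.9 ± 1.004 and 35.6 ± 1.27 TPM in NCIH838 CTRL and KDSR KO, 2.999-fold higher, and PHLDA3 was 1.38-fold lower. SGCB, another sarcoglycan, was 1.29-fold lower there, and GRB14, a relative of GRB10, 1.27-fold. Among other genes of retrotransposon origin, PNMA2 was 1.74-fold lower in NCIH838, and PNMA1 fell 1.15-fold in DLD1 (adjusted p = 0.0210), a call lost under median ratio scaling, quantile normalization and limma voom and without CTRL replicate 3 or KDSR KO replicate 1. Of the relatives, 1 of 12 rose and 1 fell in DLD1, where 5.16% and 12.1% of all genes did. In NCIH838, 3 of 16 were higher and 7 lower (2 and 7 without KDSR KO replicate 2), where 15.7% and 26.8% of all genes were. In HUH7 0 of 16 were called.

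PEG10 protein is known to be cleared with the help of the ubiquilin UBQLN2. In DLD1, UBQLN1 rose from 147 ± 6.11 to 193 ± 5.87 TPM (adjusted p = 0.00250), while UBQLN2 fell (log2 difference -0.21, adjusted p = 0.00363) and UBQLN4 fell (-0.19, adjusted p = 0.0432). These are 3 of the 7 genes of that list, 1 higher and 2 lower, where 5.16% of all genes rose and 12.1% fell. The count of falls was 1 under median ratio scaling, 0 under limma voom, and 1 without any 1 of CTRL replicates 2 and 3 and KDSR KO replicates 1, 2 and 3. In NCIH838, UBQLN1 was 149 ± 1.26 TPM in CTRL against 205 ± 12.8 TPM in KDSR KO. ATXN10 was 1.39-fold lower there, making 1 higher and 1 lower of 7, where 15.7% and 26.8% of all genes were. Of the oncofetal genes, 2 of 5 were called in DLD1, where 17.3% of all genes were: H19 (lower, also a member) and CEACAM5 (higher). The H19 call was lost in 11 of the 15 alternatives. The count of rises was 0 with a filter at 5 TPM and with only the groups compared. In NCIH838 0 of 6 met the call rule, where 42.5% of all genes did. With limma voom, quantile normalization or median ratio scaling 2 did, both higher. In HUH7 0 of 12 were called.

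The genes most like each member were found by Pearson correlation of log2(TPM + 1) over the 18 libraries, among 13774 genes averaging 5 TPM or more in some line. These coefficients follow mainly the differences between 3 lines, so they are descriptions only. For PEG10 the closest were KLHDC8B (r = 0.998), COL4A5, PALM, SALL2 and CDK14, each with r of 0.998. KLHDC8B was 43.9 ± 2.64 TPM in HUH7 CTRL, 4.66 ± 0.387 in DLD1 CTRL, and 29.4 ± 1.45 and 20.3 ± 0.970 in NCIH838 CTRL and KDSR KO. For SGCE they were SMARCA1 (r = 0.999), SDC2, HEG1, FIGN and CALD1. For DIRAS3 the likeness was looser, with C1QTNF6 (r = 0.975), MFF, OCEL1, AP003068.4 and PGM1.

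H19 was most like CLDN2 (r = 0.998) and CDX2 (r = 0.997), followed by RPL13P12, EPHX1 and PCCA. CLDN2 encodes a claudin of tight junctions and CDX2 an intestinal transcription factor. CLDN2 was 123 ± 11.3 TPM in DLD1 CTRL and 92.7 ± 3.83 in KDSR KO, and CDX2 was 246 ± 21.6 and 175 ± 3.64 TPM. Within the 6 NCIH838 libraries, among 11458 genes, PEG10 was closest to ARSK (r = 0.999), SNAP25, AGFG2, CD24 and COA5, and DIRAS3 to NDUFA2 (r = 0.9996), FDPS, TANGO6, THBS3 and SHMT1. SNAP25, a synaptic fusion protein, was 35.3 ± 1.48 and 14.1 ± 1.57 TPM in NCIH838 CTRL and KDSR KO. FDPS, an enzyme of isoprenoid synthesis, was 109 ± 4.66 and 71.8 ± 2.11 TPM. A correlation over 6 libraries in 2 groups mostly repeats the difference between those groups.

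Markers of other cell types were checked beside the NCIH838 differences. The sum of 7 fibroblast markers was 13.1 to 15.1 TPM in CTRL and 7.88 to 9.29 TPM in KDSR KO. Of the 2 tested, 1 was higher (COL1A1) and 1 lower (LUM), where 15.7% and 26.8% of all genes were. The sum of 9 liver markers was 0.949 to 9.52 TPM in CTRL and 0.845 to 1.76 TPM in KDSR KO, against 15733 to 17674 TPM in HUH7 CTRL. ALB, serum albumin, reached 3.10 TPM in CTRL replicate 1. Mitochondrial genes made up 11.9% to 15.2% of TPM in NCIH838 CTRL and the same 11.9% to 15.2% in KDSR KO. Their part in the differences of the members was not tested.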

How the data were processed

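The authors deposited a single table of TPM values for 27166 genes, with positions and lengths. Per the submitters' processing notes, featureCounts 2.0.0 and hg38 were used; no aligner is named there. All gene names and starts matched GENCODE 29. Multiplying TPM by gene length and dividing by the worth of 1 read returned whole numbers (tolerance 0.01 reads) for 100% of values; these recovered reads served for depth, read limits and limma voom. Columns were matched to samples through the sample numbers in the descriptions.

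Levels were fitted as log2(TPM + 1), which understates changes of low genes, with limma 3.58.1 in R 4.3.3 (1 mean per group, eBayes with trend and robust options). All 18 libraries shared 1 estimate of each gene's spread. SE, intervals and p-values for 1 line therefore also draw on lines where the gene is near 0. Genes entered the fit if they averaged 1 TPM or more in some line (19869 genes). Benjamini-Hochberg adjustment ran over genes with that mean in the line, over all 19869 for CTRL contrasts, and over genes tested in both lines for the difference of effects; calls were made at adjusted p under 0.05. Fold changes are ratios of mean TPM. A count of 0 was bounded at 3 reads per group; this covers counting error only. KDSR was also compared by a two-sided exact permutation test. The fitting code was tested on simulated data.

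The members and all gene lists were chosen with earlier results of these data known. Named list genes were those called in HUH7 or DLD1 with a mean of at least 5 TPM (up to 6 per list and line) and, in NCIH838, up to 6 per list with the largest differences among those past the same threshold with that mean; IRS2 in DLD1, TP73 and CEACAM5, CARS in NCIH838, COL1A1, and the neighbours GNG12, WLS, FIGNL1, SLC22A18 and NAP1L4 were named after their values were seen. Alternatives were a pseudocount of 0.1, no filter, a filter at 5 TPM, median ratio scaling, quantile normalization, mitochondrial genes left out, a replicate block, only the groups compared, limma voom, and leaving out each library. Promoter and microRNA sequences came from RefSeq tables (4 of 10 members matched: DIRAS3, GRB10, H19 and MEG3).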

Additional observations from a re-analysis of the deposited data

Results flagged for a closer look

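Outside the marker lists, the knockout effect differed between DLD1 and HUH7 for 3 listed genes, by the limma test of that difference. Of the colon markers, 2 of the 4 tested in both lines also differed, both lower. Over all genes, 2.62% of 13412 differed. CDKN1A, the relative of CDKN1C, gave 0.80 (DLD1 minus HUH7, log2; adjusted p = 0.000954), with all DLD1 KDSR KO libraries above CTRL and means of 12.8 ± 0.834 TPM in HUH7 CTRL and 11.8 ± 0.427 in HUH7 KDSR KO (SD, n = 3). SHC1, the signalling adaptor, gave 0.34 (adjusted p = 0.0103), from 78.0 ± 3.27 to 92.3 ± 2.27 TPM in DLD1 and from 275 ± 5.99 to 257 ± 7.22 TPM in HUH7. DNMT3A, the de novo methyltransferase, gave -0.32 (adjusted p = 0.0471), from 13.2 ± 0.254 to 10.6 ± 0.278 TPM in DLD1 and from 21.3 ± 1.06 to 21.8 ± 0.926 TPM in HUH7.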

How the results depend on the processing

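Of 2065 values recomputed over 27 alternative settings, 1923 kept their direction and call, or stayed within 1.5 times a count. The count of members called in DLD1 was 2; it was 1 with a pseudocount of 0.1, no filter, median ratio scaling, quantile normalization, mitochondrial genes left out and the replicate block, and 1 to 2 over the leave-one-out fits, GRB10 remaining called in each. H19 was the lost call, with adjusted p of 0.171, 0.0676, 0.0764, 0.0874, 0.0616 and 0.0648 in that order; the cause was not tested. The count for the DLD1 minus HUH7 effect was 0 and became 1 under limma voom. CDKN1C in NCIH838 did not meet the call rule with a pseudocount of 0.1, and KDSR in HUH7 passed under median ratio scaling (adjusted p = 0.0364) and quantile normalization (adjusted p = 0.0437).

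Signs changed only for values that were not called. In HUH7, PEG10 became -0.017 under median ratio scaling and -0.016 under voom, SGCE -0.0030 and -0.0016, and DLK1 -0.0048 and -0.00024, with -0.027 under quantile normalization. Leave-one-out ranges in HUH7 were -0.10 to 0.063 for PEG10, -0.028 to 0.066 for SGCE, -0.067 to 0.11 for DLK1, -0.25 to 0.029 for H19, -0.18 to 0.038 for PHLDA2 and -0.0079 to 0.057 for GRB10. KDSR in NCIH838 became 0.00014, 0.038 and 0.027 under median ratio scaling, quantile normalization and voom, and -0.13 to 0.0086 in leave-one-out fits. PHLDA2 in DLD1 minus HUH7 became 0.0040 under median ratio scaling and 0.023 under voom, and -0.20 to 0.030 in leave-one-out fits. DLK1 in NCIH838 CTRL minus DLD1 CTRL ranged from -0.031 to 0 in leave-one-out fits and from -0.63 to -0.019 under the other settings.

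Scaling moved the balance of all calls. The share of higher calls was 29.9% in DLD1 and 47.6%, 55.8% and 54.4% under median ratio scaling, quantile normalization and voom. In NCIH838 it was 36.9%, against 45.8%, 47.2% and 50.2%, and for DLD1 minus HUH7 61.3%, against 76.5%, 83.5% and 84.7%. Calls over all genes numbered 0 in HUH7 (14 with no filter, 2 under median ratio scaling and quantile normalization, 1 under the block, and up to 7, without CTRL replicate 3), 2674 in DLD1 (1605 without CTRL replicate 3, 1753 without KDSR KO replicate 3) and 351 for DLD1 minus HUH7 (213 under the block, 199 without HUH7 KDSR KO replicate 2, 219 without DLD1 KDSR KO replicate 1). Libraries of the same number correlated at -0.171 to 0.338 across genes, not all above 0.1, so the numbers were not taken to pair them; not every library correlated best with its own number. DIRAS3, IGF2 in DLD1, DLK1 and MEG3 rest on few reads, which limits what could be detected.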
